A study of Mus musculus
Rattus norvegicus and Rattus norvegicus and Mus musculus with 18 samples.

Results

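Tight junctions seal neighbouring epithelial cells to each other just below their free surface. Claudins span the membrane and form the strands that decide which ions pass between cells, occludin lies in the same strands, and junctional adhesion molecules help to set up polarity where the junction forms. On the inner side, scaffold proteins of the ZO family tie these proteins to the actin skeleton. Mammary epithelium uses claudin-3, claudin-4 and claudin-7, and tumors that lose most claudin expression have been described in breast cancer as a class of their own. The 6 genes followed here were Cldn3, Cldn4 and Cldn7 (claudins), Ocln (occludin), F11r (junctional adhesion molecule A) and Tjp1 (the scaffold ZO-1). They were chosen by symbol, all 6 had a row among the 17672 mouse genes and all 6 among the 14876 rat genes, and all passed the filter on low values in every comparison.

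The tumors were 4T1, a metastatic mouse mammary carcinoma line, placed in the mammary fat pads of SRG rats, an immunodeficient strain, and tissue was taken after 27 days. Cancer cells were thus mouse and the host was rat, so reads on mouse genes were read as 4T1 RNA and reads on rat genes as host RNA. PolyA RNA-seq was done on 5 lungs with metastases (Rat3877, Rat3876, Rat3875, Rat3869 and Rat3789), on the dissected necrotic core of 5 primary tumors (Rat3877, Rat3876, Rat3875, Rat3869 and Rat3867), on the non-necrotic rim of the same 5 tumors, on 1 pellet of 4T1 cells and on normal mammary gland from rats without a graft (2 libraries). The labels give the genotype as wildtype and no treatment throughout, and every tumor came from the single line 4T1.

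Libraries held 15346400 to 26669410 mouse reads and 3146720 to 10015352 rat reads on genes. Mouse reads made up 64.0 to 75.3% of reads in lungs, 83.8 to 87.4% in cores and 65.7 to 81.3% in rims. The library labelled lung of Rat3789 held little of the lung in its rat reads: 7 alveolar genes summed to 85.7 CPM (reads scaled to library size, the deposited value) against 8906 to 15030 CPM in the other 4 lungs, and 2 airway genes to 1.59 CPM against 751 to 3167 CPM. Adipocyte genes reached 87.8 CPM in it against 0.538 to 3.50 CPM in the other lungs. Results from lung are therefore given with and without that library. In mouse reads, all 7 epithelial markers of the list were found in every tissue, with sums of 1883 to 2823 CPM in lungs, 2283 to 3762 CPM in cores and 4043 to 4902 CPM in rims, while 3 leukocyte genes summed to at most 7.17 CPM and 3 endothelial genes to at most 3.07 CPM in any library. Fewer cells of a type and less RNA per cell cannot be told apart in such bulk samples.

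On the mouse genome build GRCm38, Cldn3 (ENSMUSG00000070473) lies on chr5:134986214-134987472 on the plus strand and Cldn4 (ENSMUSG00000047501) on chr5:134945119-134946934 on the minus strand, 39279 bases apart. Both are short, with 1259 and 1816 exon bases. Cldn7 lies on chr11:69964779-69967885 (plus), Ocln on chr13:100496507-100552718 (minus), Tjp1 on chr7:65296165-65527781 (minus) and F11r on chr1:171437535-171464603 (plus). The exons of Cldn3 are overlapped on the other strand by the annotated antisense gene Wbscr25, and no source used here says whether counting used strand, so the level of Cldn3 is uncertain by any antisense reads. The coding sequences of Cldn3 and Cldn4 were identical at 73.5% of 627 aligned bases, and their longest identical run was 35 bases, against 18 bases between Cldn3 and Cldn7 and 14 between Cldn4 and Cldn7. That run is shown because reads that lie wholly inside it cannot be told apart between these genes, which carry the largest mouse differences among the 6. Bases are counted from 1 at the A of the start codon, the sequences are from the GENCODE M21 transcripts, and capitals mark the shared run.
Cldn3, coding bases 181 to 275: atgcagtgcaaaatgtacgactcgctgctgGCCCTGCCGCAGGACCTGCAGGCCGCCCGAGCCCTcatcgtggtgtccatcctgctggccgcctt
Cldn4, coding bases 184 to 278: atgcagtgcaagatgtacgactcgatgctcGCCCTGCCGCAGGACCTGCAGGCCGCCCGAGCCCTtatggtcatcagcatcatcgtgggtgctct
The bases after the run differ at more positions than those before it, so reads are told apart mainly by the bases after it.

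In 4T1 cells of the lung, Cldn3 and Cldn4 were far below their levels in the tumor rim and in the necrotic core, while Cldn7, Ocln, F11r and Tjp1 stood within a few fold of the tumor. Cldn3 had 2.25, 5.98, 1.42, 13.1 and 3.91 CPM in the lungs of Rat3877, Rat3876, Rat3875, Rat3869 and Rat3789. It had 71.9, 62.4, 46.1, 90.4 and 74.6 CPM in the cores and 21.2, 68.2, 65.9, 81.3 and 98.1 CPM in the rims of Rat3877, Rat3876, Rat3875, Rat3869 and Rat3867. Every lung lay below every core and every rim, and the rim of Rat3877 was the lowest rim by a wide margin. In the limma fit over all genes, Cldn3 was 15.1-fold lower in lung than in rim (log2 difference -3.91, SE 0.56, adjusted p = 0.00111) and 17.0-fold lower in lung than in core (-4.09, SE 0.46, adjusted p = 4.63e-05). The pellet of 4T1 cells had 68.3 CPM (exact Poisson 95% interval 65.4 to 71.4, counting error only), a value within the range of the cores, scaled apart from the tumor table.

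Cldn4 showed the widest range of the 6. It had 3.23, 11.2, 5.57, 18.5 and 7.44 CPM in the lungs, in the order of rats given for Cldn3. In the cores it had 137, 144, 80.4, 109 and 107 CPM, and in the rims 50.7, 346, 246, 332 and 638 CPM. The lungs again lay below every core and every rim, and 4 of 5 rims lay above every core, the exception being the rim of Rat3877. Between lung and rim the difference was 31.9-fold (log2 -4.99, SE 0.61, adjusted p = 0.000525) and between lung and core 14.6-fold (-3.87, SE 0.36, adjusted p = 1.66e-05). The pellet, at 70.4 CPM, lay below all 5 cores and above all 5 lungs.

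These falls were as large without the library labelled lung of Rat3789: against rim, log2 -3.91 for Cldn3 (adjusted p = 0.00223) and -4.98 for Cldn4 (adjusted p = 0.00112), and against core -4.08 (adjusted p = 7.45e-05) and -3.86 (adjusted p = 2.28e-05). Without the lung and rim of Rat3877, lung minus rim came to -4.08 for Cldn3 (adjusted p = 0.00170) and -5.25 for Cldn4 (adjusted p = 7.08e-05). Some reads counted on mouse genes in the lungs may not come from 4T1 cells. Normal rat gland, which holds no mouse cells, had 16 mouse reads of Cldn3 beside 136 rat reads in its library 2, and 36 mouse reads of Cldn4 beside 121 rat reads. At those rates the rat reads of the lungs would give 0.118 to 38.6 mouse reads of Cldn3 and 4.46 to 85.4 of Cldn4, which is 0.12 to 98.9% of the Cldn3 reads and 2.39 to 58.9% of the Cldn4 reads counted there. Gland library 1 had 9 mouse reads of Cldn3, 18 of Cldn4 and 143 of Krt18, with only 2 rat reads of each. Mouse reads in gland thus did not follow the rat reads of the same gene, and their source was not tested. The percentages at the rates of library 2 are therefore not measured shares. In cores and rims the same rates give at most 2.74% of the Cldn3 reads and 4.51% of the Cldn4 reads. The library labelled lung of Rat3789, which held little of the lung, had 1 rat read of Cldn3 and 15 of Cldn4. Its mouse values were 3.91 and 7.44 CPM. The part of reads from outside 4T1 cells in the lung levels was not tested.

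**Figure D1:**
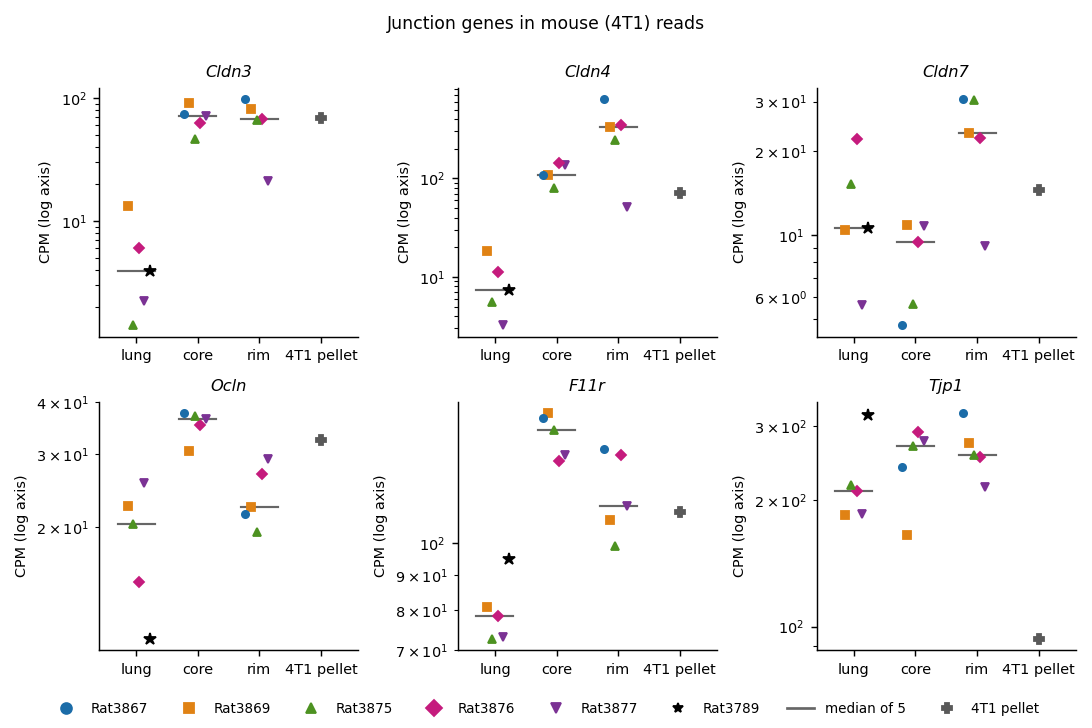
Levels of the 6 junction genes in mouse reads (CPM, log axis; each panel has its own range) in lungs, cores and rims, 1 symbol a rat with a bar at the median of 5, and in the 4T1 pellet. Cldn3 and Cldn4 lie below every core and rim in all 5 lungs, whereas Cldn7 has its lowest median in cores and Tjp1 overlaps between tissues.

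Cldn7, which pairs with the adhesion molecule Epcam at the cell surface, did not follow the other claudins. It had 5.64, 22.1, 15.2, 10.5 and 10.6 CPM in the lungs, 10.8, 9.44, 5.66, 10.9 and 4.75 CPM in the cores and 9.11, 22.3, 30.5, 23.1 and 30.6 CPM in the rims. Apart from the rim of Rat3877, every rim lay above every core. Core minus rim was -1.44 on the log2 scale (SE 0.38, adjusted p = 0.0292), lower in 4 of 5 rats. Without Rat3877, the rat that went the other way, it was -1.86 (adjusted p = 0.00455), which is therefore no independent support. The call with all rats ended when Rat3867, Rat3869, Rat3875 or Rat3876 was left out (adjusted p = 0.0911, 0.0584, 0.107 and 0.0670). Lungs overlapped both other tissues: lung minus rim was -0.88 (95% interval -1.71 to -0.045, adjusted p = 0.123; -0.92 and adjusted p = 0.0272 without Rat3877; -0.71 and adjusted p = 0.0418 with the replicate block over the 4 rats that gave both tissues), and lung minus core was 0.56 (-0.17 to 1.29, adjusted p = 0.211; 0.94 and adjusted p = 0.0497 without Rat3877). Rat3877 had less Cldn7 in its lung than in its core, so the lung minus core call without it is no independent support either. The pellet had 14.5 CPM, between the cores and most rims.

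The relative amounts of the claudins therefore differed by tissue. The ratio of Cldn7 to Cldn3 was 0.795 to 10.7 in lungs, 0.0637 to 0.151 in cores and 0.284 to 0.462 in rims, against 0.212 in the pellet, and these 3 tissue ranges did not overlap. Cldn4 over Cldn3 was 1.41 to 3.94 in lungs, 1.21 to 2.31 in cores and 2.39 to 6.51 in rims, against 1.03 in the pellet. Every library from an animal thus had more Cldn4 relative to Cldn3 than the cultured cells. These ratios are of CPM not divided by length and carry no test. In the lungs they rest on 36 to 288 mouse reads of Cldn3. Some of the Cldn3 and Cldn4 reads there may not come from 4T1 cells, as given above.

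Ocln rose in the necrotic core. It had 25.5, 14.7, 20.4, 22.5 and 10.8 CPM in the lungs, 36.4, 35.2, 37.1, 30.5 and 37.7 CPM in the cores and 29.1, 26.9, 19.5, 22.4 and 21.5 CPM in the rims. All cores lay above all rims and all lungs, and core exceeded rim in each of the 5 rats. The difference of core to rim was 0.58 (SE 0.13, adjusted p = 0.0155), a call that ended without Rat3867 or Rat3875 (adjusted p = 0.0655 and 0.0660). Lung minus core was -0.98 (SE 0.20, adjusted p = 0.00229; -0.79 and adjusted p = 0.00141 without Rat3789), and lung minus rim was -0.39 (95% interval -0.87 to 0.079, adjusted p = 0.217). At 32.4 CPM, the pellet stood among the cores.

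F11r was lowest in the lung. It had 73.1, 78.5, 72.6, 80.9 and 95.02 CPM in the lungs, 135, 132, 146, 155 and 152 CPM in the cores and 113, 134, 99.3, 108 and 137 CPM in the rims. No lung reached any rim, and the lung of Rat3789 and the rim of Rat3875 came nearest to each other. F11r fell by 0.56 in lung against rim (SE 0.11, adjusted p = 0.00514) and by 0.85 in lung against core (SE 0.093, adjusted p = 3.81e-05). Without the lung of Rat3789 the differences were -0.63 (adjusted p = 0.00291) and -0.92 (adjusted p = 1.27e-05); without Rat3876 and Rat3877 together, the difference to the rim was not called (-0.47, adjusted p = 0.105). Core minus rim was 0.29 (95% interval 0.044 to 0.54, adjusted p = 0.0940), and F11r was called higher in core when all 15 libraries entered 1 fit (adjusted p = 0.0278).

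Tjp1 had 185, 210, 217, 184 and 319 CPM in the lungs, 278, 291, 269, 166 and 240 CPM in the cores and 215, 254, 257, 274 and 323 CPM in the rims. The ranges of all 3 tissues overlapped, and the library labelled lung of Rat3789 stood far above the other lungs. None of the comparisons called Tjp1: lung minus rim was -0.26 (95% interval -0.59 to 0.066, adjusted p = 0.235), lung minus core -0.16 (-0.53 to 0.22, adjusted p = 0.501) and core minus rim -0.10 (-0.46 to 0.26, adjusted p = 0.680). Without the lung of Rat3789, lung minus rim was -0.40 and was called (adjusted p = 0.0267), as it was with the replicate block (-0.32, adjusted p = 0.0392), which also leaves that library out. The pellet, with 93.4 CPM, lay below every tumor and lung library, the lowest of which had 166 CPM.

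**Figure D2:**
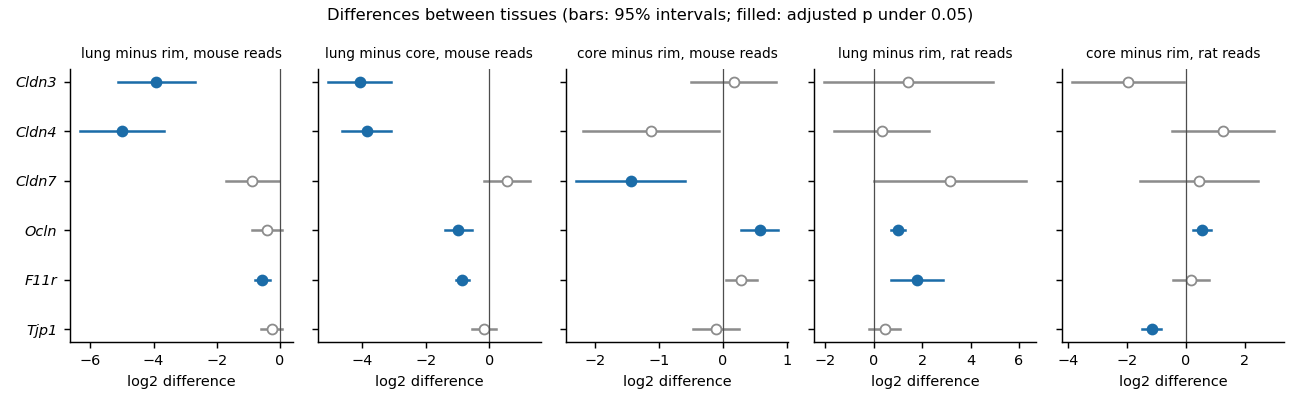
Fitted log2 differences of the 6 genes with 95% intervals for lung minus rim, lung minus core and core minus rim in mouse reads and for lung minus rim and core minus rim in rat reads; filled points passed an adjusted p of 0.05. Cldn3 and Cldn4 stand near -4 to -5 in the lung comparisons of mouse reads, and the claudins have the widest intervals in rat reads.

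Of the 6 genes, 0 were higher and 3 lower in lung than in rim (Cldn3, Cldn4 and F11r), where 20.1% of 12970 genes were called, 9.91% higher and 10.2% lower. In lung against core, 4 were lower (those 3 and Ocln), where 36.3% of 13058 genes were called, 17.1% higher and 19.1% lower. In core against rim, Ocln was higher and Cldn7 lower, where 19.8% of 13070 genes were called, 10.1% higher and 9.63% lower. The median log2 difference of the 6 was -0.72, -0.91 and 0.035 in these comparisons, against 0.011, -0.016 and 0.010 over all genes tested. The comparisons share libraries and are not independent of each other.

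In core against rim, the call of Cldn4 and the direction of Cldn3 changed when Rat3877 was left out. Cldn4 differed by -1.12 (95% interval -2.18 to -0.064, adjusted p = 0.125), lower in core in 4 of 5 rats, and without Rat3877, the rat that went the other way, by -1.76 (adjusted p = 0.00138), which is therefore no independent support. Cldn3 differed by 0.18 (-0.49 to 0.84, adjusted p = 0.711) and without Rat3877 by -0.22 (adjusted p = 0.279). The rim of Rat3877 held 235 CPM of Epcam, against 460 to 752 CPM in the other rims, and 11.1 CPM of the epithelial splicing factor Esrp1, against 38.6 to 72.1 CPM. Its Krt8 was 1915 CPM, against 1533 to 2059 CPM in the other rims.

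Per kilobase of exon, the scale on which genes can be set beside each other, the lung levels were 4.24 ± 3.73 for Cldn3, 5.06 ± 3.29 for Cldn4, 6.56 ± 3.18 for Cldn7, 4.45 ± 1.41 for Ocln, 30.04 ± 3.42 for F11r and 28.6 ± 7.12 for Tjp1 (CPM per kb, mean ± SD, n = 5). Claudins and occludin were thus level with each other in the lung within their spread, and F11r and Tjp1 stood above them. In cores the levels were 54.9 ± 13.0 for Cldn3, 63.7 ± 14.1 for Cldn4, 4.26 ± 1.48 for Cldn7, 8.38 ± 0.683 for Ocln, 54.0 ± 3.87 for F11r and 31.8 ± 6.39 for Tjp1. In rims they were 53.2 ± 22.7 for Cldn3, 178 ± 117 for Cldn4, 11.9 ± 4.50 for Cldn7, 5.65 ± 0.946 for Ocln, 44.5 ± 6.26 for F11r and 33.9 ± 5.02 for Tjp1. Cldn4 headed the order of means in rims, with a wide spread (SD 117), and the rim of Rat3877 had only 50.7 CPM of it before division by length. Cldn3 and F11r did not differ beyond their spread in rims, nor did Cldn3, Cldn4 and F11r in cores.

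Across the 15 tumor and lung libraries, log2 levels of Cldn3 and Cldn4 had a Pearson r of 0.951, and Cldn3 and F11r of 0.861. Cldn7 had an r of 0.182 with Cldn3, 0.405 with Cldn4 and -0.501 with Ocln. The libraries fall into tissues, so these values describe mainly the differences between tissues. Among 10731 mouse genes, those most like Cldn3 were Gm50321 (r = 0.955), Cldn4 (0.951) and Tnnt2 (0.944), and those most like Cldn4 were Mmp13 (0.973), a collagenase, Fam167a (0.968) and Jup (0.962), the plakoglobin of cell junctions. For Cldn7 the nearest were Dpp3, Samd10 and Eogt (r of 0.868, 0.867 and 0.866). Itga8 (0.944), Atg12 (0.936) and Adgrl3 (0.925) were nearest to Ocln, Zfp629 (0.954), Tead2 (0.953) and Dmtn (0.951) to F11r, and Fam168a (0.945), Pofut1 (0.936) and Nav1 (0.931) to Tjp1.

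Genes next to the Cldn3 and Cldn4 pair were looked at by position alone, within 100000 bases. Mettl27, which follows Cldn4, was lower in lung than in rim (-1.52, adjusted p = 0.00130) and in core (-1.09, adjusted p = 0.000443). Stx1a was lower in lung than in rim (-1.07, adjusted p = 0.0130). Abhd11, the nearest tested gene beyond Cldn3, had -0.083 (adjusted p = 0.620) in lung against rim, and Bud23 (0.28), Dnajc30 (-0.048) and Vps37d (-0.70) were not called there either, but Vps37d was lower in lung than in core (-1.24, adjusted p = 0.000192).

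Other genes of the tight junction in mouse reads were mostly lower or not called in the lung. Among 30 tested genes of 3 lists (other claudins, other membrane proteins of the junction, scaffolds and polarity proteins), 2 were higher and 10 lower in lung than in rim, with a median of -0.26. In lung against core, 1 of 31 was higher and 12 were lower (median -0.29), and in core against rim 2 of 33 were higher and 2 lower (median -0.015). Of all genes, 9.91% were higher and 10.2% lower in lung against rim, and 17.1% and 19.1% in lung against core. In core against rim these shares were 10.1% and 9.63%. Without the lung of Rat3789 the counts were 2 higher and 12 lower of 30 against rim and 1 higher and 13 lower of 31 against core. Over all genes tested, those fits called 21.9% (10.7% higher, 11.1% lower) and 37.9% (17.4% higher, 20.5% lower). Without Rat3877, 0 were higher and 10 lower of 30 in lung against rim and 2 higher and 2 lower of 32 in core against rim, where 17.3% (8.17% higher, 9.09% lower) and 17.5% (8.45% higher, 9.01% lower) of all genes were called.

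By role, the claudin Cldn23 had a mean of 1.07 CPM in lungs and 1.73 CPM in cores, against 4.00 CPM in rims (lung minus rim -1.996, adjusted p = 0.00111; core minus rim -1.25, adjusted p = 0.0118), and its call in the core ended without Rat3875 (adjusted p = 0.0514). Cldn12 was slightly lower in lung than in rim (-0.42, adjusted p = 0.00293). Cldn6 had a median of 0.878 CPM in lungs, against 2.52 CPM in rims, where Rat3876 stood apart at 41.3 CPM (lung minus rim -2.38, adjusted p = 0.0497; -1.33 without Rat3876). Leaving out any 1 of the 6 rats ended its call (adjusted p = 0.0570 to 0.0896), as did the replicate block (adjusted p = 0.114). In lungs Cldn6 (0.421 to 1.26 CPM) and Cldn23 (0.535 to 1.63 CPM) were near the floor. Both passed the filter on low values mainly through the rims, and both are among the 10 genes counted above as lower in lung than in rim. Lsr, the receptor that places tricellular junctions, fell in the lung by 0.64 against the rim (adjusted p = 0.00187). Marveld2, the tricellulin of the same sites, fell there by 0.64 (adjusted p = 0.0153). Cxadr, the coxsackie and adenovirus receptor, averaged 126 CPM in lungs, 293 CPM in cores and 175 CPM in rims, so that like Ocln it was higher in core than in rim (0.78, adjusted p = 0.00590) and lower in lung than in core (-1.25, adjusted p = 5.22e-05).

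Among scaffolds, cingulin (Cgn) fell to a mean of 24.5 CPM in lungs, against 51.9 CPM in cores and 56.9 CPM in rims (lung minus rim -1.21, adjusted p = 0.000568; lung minus core -1.09, adjusted p = 6.80e-05). The polarity protein Pard6b was lower in lung than in rim by 0.94 on the log2 scale (log2 difference -0.94, adjusted p = 0.00211). Tjp3, encoding ZO-3, was lower in lung than in core (-1.97, adjusted p = 0.00221), but near the floor. It had 0.253 to 1.07 CPM in lungs and 1.07 to 2.63 CPM in cores, and passed the filter on low values mainly through the cores. Magi3 (0.51, adjusted p = 0.0272) and Prkci (0.30, adjusted p = 0.0438) were higher in lung than in rim. Magi3 was no longer called without Rat3867, Rat3875, Rat3876 or Rat3877 (adjusted p = 0.0553 to 0.0674), nor Prkci without Rat3867, Rat3869, Rat3875, Rat3876 or Rat3877 (adjusted p = 0.0582 to 0.136), and with the replicate block both came to an adjusted p of 0.0670. Amotl2 was higher in core than in rim (0.86, adjusted p = 0.0173; 0.0540 without Rat3875).

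Epcam, which stabilizes claudin-7 at the membrane, averaged 59.1 CPM in lungs, 209 CPM in cores and 508 CPM in rims. It was lower in lung than in rim (-3.11, adjusted p = 0.000226), lower in lung than in core (-1.91, adjusted p = 7.05e-05) and lower in core than in rim (-1.20, adjusted p = 0.00723). The surface protease St14 (-0.94, adjusted p = 0.00774) and its inhibitor Spint2 (-0.58, adjusted p = 0.0108; 0.0594 without Rat3876) were also lower in lung than in rim. Of 6 tested epithelial transcription and splicing factors, 0 were higher and 4 lower in lung than in rim, beside 9.91% and 10.2% of all genes. They included Esrp1 (-3.30, adjusted p = 0.00512), Esrp2 (-1.49, adjusted p = 0.00310) and Grhl2 (-1.31, adjusted p = 0.00196), a factor known to bind claudin genes. Without Rat3876 and Rat3877 together, Marveld2 (adjusted p = 0.0870), St14 (0.0576) and Spint2 (0.0698) were not called in lung against rim, nor Cldn23 (0.0824) in core against rim. Klf4 was higher in core than in rim (1.85, adjusted p = 0.0128; 0.0539 without Rat3875).

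Of 4 tested repressors of epithelial genes, Zeb2 and Twist1 were higher both in lung and in core than in rim, and 0 were lower there, beside 9.91% of all genes higher in lung and 10.1% higher in core. Zeb2 averaged 83.5 CPM in lungs and 76.6 CPM in cores, against 52.0 CPM in rims (lung minus rim 0.71, adjusted p = 0.0107, 0.0546 without Rat3876; core minus rim 0.59, adjusted p = 0.0300). The core difference of Zeb2 was not called without Rat3867, Rat3875 or Rat3876 (adjusted p = 0.0834 to 0.111). Twist1 averaged 81.6 CPM in lungs and 154 CPM in cores, against 59.2 CPM in rims (core minus rim 1.39, adjusted p = 0.00199). Its lung difference was smaller (0.50, adjusted p = 0.0466) and was not called without Rat3867, Rat3869, Rat3875 or Rat3876 (adjusted p = 0.107 to 0.166). In lung against core, 0 of the 4 were higher and 1 lower, beside 17.1% and 19.1% of all genes. The lower one was Twist1 (-0.89, adjusted p = 0.000662).

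**Figure D3:**
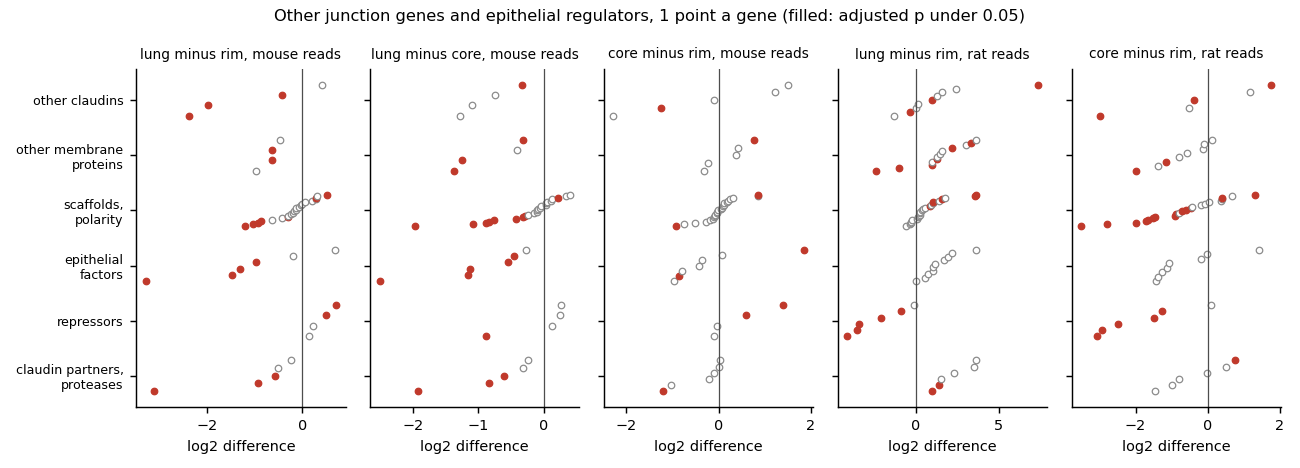
Log2 differences of the other junction genes, epithelial factors, repressors and claudin partners in the 5 comparisons, 1 point a gene with called genes filled. In lung minus rim of mouse reads most called genes lie left of 0 and the called repressors right of it, while in lung minus rim of rat reads most lie right of 0 and the called repressors left.

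In the host, Ocln was the one gene of the 6 called in both comparisons of rat reads. It had 64.2, 62.9, 68.4, 50.6 and 46.8 CPM in the lungs of Rat3877, Rat3876, Rat3875, Rat3869 and Rat3789. In the cores of Rat3877, Rat3876, Rat3875, Rat3869 and Rat3867 it had 34.7, 49.3, 38.6, 45.2 and 46.0 CPM, and in their rims 32.8, 34.3, 26.4, 26.2 and 26.5 CPM. All lungs and all cores lay above all rims, the nearest pair being the core of Rat3877 and the rim of Rat3876. Lung minus rim was 1.00 (SE 0.13, adjusted p = 0.000611; 1.07 and adjusted p = 0.000107 without Rat3789), and core minus rim was 0.55 (SE 0.13, adjusted p = 0.0125; 0.71 and adjusted p = 0.0219 without Rat3876 and Rat3877). The gland libraries held 12 and 196 rat reads of Ocln, or 0.582 and 9.21 CPM. As in mouse reads, core exceeded rim in 5 of 5 rats, and the 2 species' values come from the same 10 libraries.

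Tjp1 went the other way in the host core. Rat Tjp1 had 280, 200, 171, 156 and 74.6 CPM in the lungs, 68.5, 56.1, 48.5, 40.8 and 55.7 CPM in the cores and 102, 135, 103, 121 and 138 CPM in the rims. Every core lay below every rim and every lung. Core minus rim was -1.16 (SE 0.14, adjusted p = 0.000502; -1.32 and adjusted p = 0.00243 without Rat3876 and Rat3877). Lung minus rim was 0.45 (95% interval -0.19 to 1.08, adjusted p = 0.302) and without the lung of Rat3789 it was 0.73 and called (adjusted p = 0.00795). Fibroblasts also make ZO-1, and 4 fibroblast markers were lower in every core than in every rim, as Tjp1 was, but in lungs they did not follow it. They summed to 736 to 2114 CPM in the lungs other than that of Rat3789, 8788 CPM in that lung, 2200 to 7329 CPM in cores and 15224 to 31352 CPM in rims. Endothelial genes (5 of 6 listed) summed to 499 to 1277 CPM in lungs, 202 to 606 CPM in cores and 293 to 500 CPM in rims. The part of these cells in the difference of core to rim was not tested.

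Host F11r had 236, 185, 179, 179 and 35.8 CPM in the lungs, 70.5, 31.4, 27.8, 57.2 and 50.6 CPM in the cores and 58.7, 61.7, 29.5, 24.0 and 37.8 CPM in the rims. The lung of Rat3789 lay within the range of the tumors and the other 4 lungs far above it. Lung minus rim was 1.80 (SE 0.49, adjusted p = 0.0232), and 2.29 without Rat3789 (adjusted p = 9.44e-05). With that library kept, leaving out Rat3867, Rat3869, Rat3875, Rat3876 or Rat3877 ended the call (adjusted p = 0.0514, 0.116, 0.124, 0.0649 and 0.0638). Between core and rim the difference was 0.18 (95% interval -0.44 to 0.79, adjusted p = 0.638).

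The claudins in rat reads split the rims. Cldn7 had 50.1, 42.9, 54.5, 54.9 and 0.739 CPM in the lungs, 2.65, 2.94, 3.66, 4.88 and 2.79 CPM in the cores and 13.3, 18.1, 0.556, 0.891 and 0.705 CPM in the rims. The rims of Rat3877 and Rat3876 thus had at least 13 CPM and the other 3 under 1 CPM, while the cores lay between. Cldn3 did likewise, with 19.4 and 24.1 CPM in the rims of Rat3877 and Rat3876 and 0.556, 1.29 and 1.31 CPM in the others, 15.7 to 32.6 CPM in 4 lungs, 0.171 CPM in the lung of Rat3789 and at most 2.05 CPM in cores. The rims of Rat3877 and Rat3876 also held 58.1 and 54.0 CPM of Krt8, 27.4 and 29.1 CPM of Krt18, 28.7 and 23.6 CPM of Krt19 and 39.0 and 63.6 CPM of Epcam, against at most 6.04, 1.29, 1.68 and 4.53 CPM in the other rims. The basal keratins Krt5 and Krt14 were highest in another rim, that of Rat3867, with 253 and 208 CPM, against 21.9 and 21.1 CPM in that of Rat3877 and 33.5 and 31.9 CPM in that of Rat3876. The sum over 7 epithelial markers was 897 to 1000 CPM in 4 lungs, 59.0 CPM in the lung of Rat3789, and 53.3 to 117 CPM in cores. In the rims it was 247 CPM (Rat3877), 300 CPM (Rat3876), 134 CPM (Rat3875), 70.2 CPM (Rat3869) and 583 CPM (Rat3867), so the whole list was highest in a rim with little claudin. The part of host epithelium in these values was not tested.

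With all libraries, none of the 3 claudins was called in either comparison of rat reads. Lung minus rim was 3.16 for Cldn7 (95% interval 0.015 to 6.30, adjusted p = 0.142), 1.43 for Cldn3 (-2.06 to 4.93, adjusted p = 0.564) and 0.33 for Cldn4 (-1.63 to 2.28, adjusted p = 0.828). Without the lung of Rat3789, Cldn7 was higher in lung (4.37, adjusted p = 0.00832), and Cldn3 (2.87, adjusted p = 0.0642) and Cldn4 (0.98, adjusted p = 0.359) were not called. Core minus rim was 0.44 for Cldn7 (-1.57 to 2.45, adjusted p = 0.724) and -1.97 for Cldn3 (-3.88 to -0.073, adjusted p = 0.0958). DESeq2 and limma-voom on the recovered reads called Cldn3 lower in core (-2.26, adjusted p = 0.0178, and -2.93, adjusted p = 0.0175), and so did the fit without Rat3869 (-2.64, adjusted p = 0.0454).

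Of the 3 claudins followed, Cldn4 had the highest rat levels in each core. It had 11.2, 14.0, 26.7, 19.96 and 1.76 CPM in the lungs, 17.5, 7.57, 32.6, 41.4 and 20.8 CPM in the cores and 30.1, 22.9, 1.67, 7.42 and 5.54 CPM in the rims. In Rat3875, Rat3869 and Rat3867 the core lay above the rim, and in Rat3877 and Rat3876 below it. For Cldn4, core minus rim was 1.26 (95% interval -0.49 to 3.01, adjusted p = 0.231). Over the other 3 rats it was 2.89, a value with no weight as a test, since the rats left out are those that went the other way.

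Some of the rat claudin reads can be mouse reads placed on the rat genome. The pellet, which holds no rat cells, had 12 rat reads of Cldn3, 5 of Cldn4 and 3 of Cldn7 beside 2006, 2068 and 426 mouse reads. At those rates the cores would hold 5.38 to 12.4 rat reads of Cldn3, and 0 to 6 were counted, so host Cldn3 was not detectable there. Rat Cldn4 in cores was counted at 24 to 131 reads against 3.80 to 7.03 at the pellet's rate, and Cldn7 at 9 to 15 against 0.690 to 1.75. In the rims of Rat3875, Rat3869 and Rat3867, Cldn3 (2 to 6 reads against 8.27 to 11.8) and Cldn7 (2 to 4 reads against 3.51 to 4.50) were near or below the rate. Cldn4 was below it in the rims of Rat3875 (7 reads against 12.5) and Rat3867 (27 against 30.9), and above it in that of Rat3869 (37 against 17.4). The rims of Rat3877 and Rat3876 had 99 and 221 reads of Cldn3 against 2.54 and 7.196. Ocln, F11r and Tjp1 lay above the rate in every library, Tjp1 by 3.45 to 5.51 times in cores. The rates rest on few pellet reads and cover counting error only loosely.

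**Figure D4:**
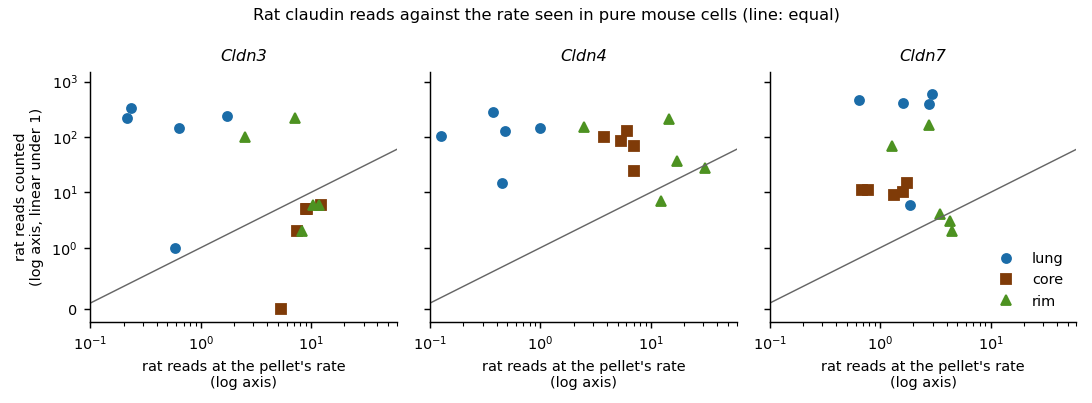
Rat reads of Cldn3, Cldn4 and Cldn7 counted in each lung, core and rim library against the number that the library's mouse reads would give at the pellet's rate (log axes, the vertical one linear under 1). Points on the line equal that rate; the cores lie under it for Cldn3 (0 to 6 reads) and above it for Cldn4 (24 to 131 reads) and Cldn7 (9 to 15 reads).

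**Figure D5:**
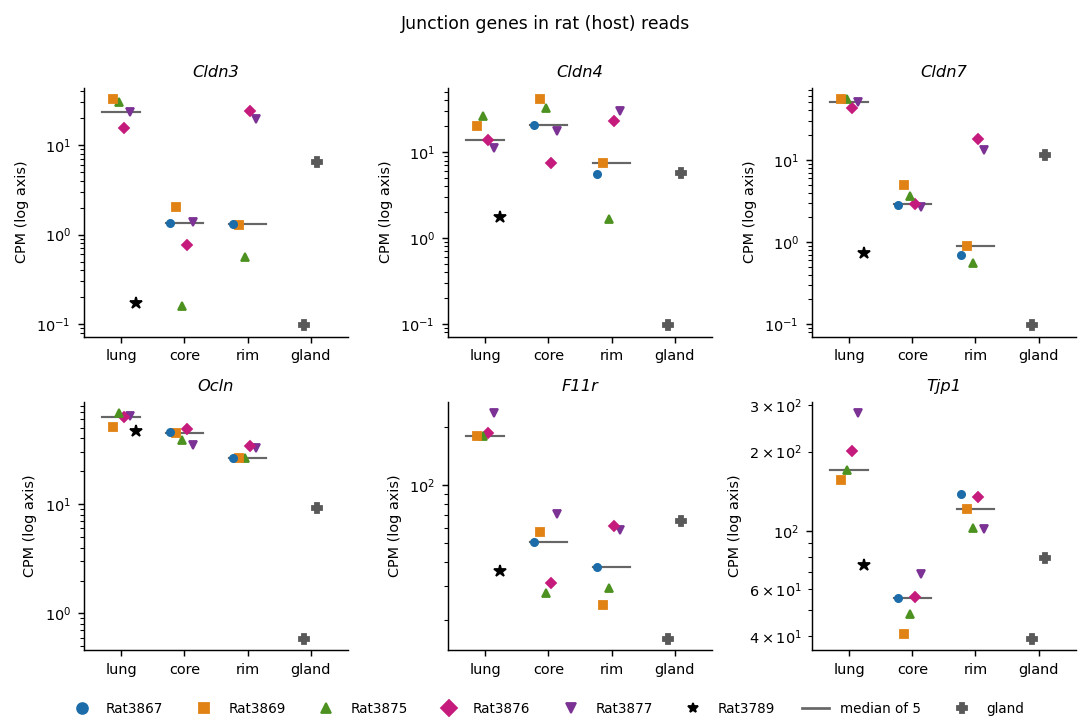
Levels of the 6 junction genes in rat reads (CPM, log axis; each panel has its own range) in lungs, cores and rims, 1 symbol a rat with a bar at the median of 5, and in the 2 gland libraries. Tjp1 is lower in every core than in every rim, and the rims of Rat3876 and Rat3877 stand above the other rims for Cldn3, Cldn4 and Cldn7.

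The normal gland did not give 1 level to compare with. Its libraries had 2 and 136 rat reads of Cldn3, 2 and 121 of Cldn4, and 2 and 243 of Cldn7, of 20607244 and 21290050 rat reads. Library 1 held 40 reads of Krt8, 2 of Krt18 and 7 of Epcam, against 403, 341 and 230 in library 2. Tjp1 (802 and 1683 reads) and F11r (330 and 1397 reads) differed less.

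Of the 6 genes in rat reads, 2 were higher and 0 lower in lung than in rim (Ocln and F11r), where 22.1% of 13841 genes were called, 10.5% higher and 11.6% lower. Ocln was higher and Tjp1 lower in core than in rim, where 37.6% of 13559 genes were called, 17.5% higher and 20.1% lower. Without the lung of Rat3789, 4 were higher in lung than in rim (Ocln, F11r, Cldn7 and Tjp1), with 29.7% of 13750 genes called, 15.4% higher and 14.3% lower. Without Rat3876 and Rat3877, Cldn3 and Cldn7 no longer passed the filter on low values in core against rim. Of the 4 left, 2 were called higher (Ocln and Cldn4) and 1 lower (Tjp1). That fit called 24.5% of 12615 genes, 10.8% higher and 13.7% lower. The call of Cldn4 has no weight as a test, for the reason given above.

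Other junction genes of the host differed in the same libraries. Of 44 tested genes of the 3 lists, 11 were higher and 3 lower in lung than in rim (median 0.92), beside 10.5% and 11.6% of all genes. Without Rat3789 the counts were 24 and 4 (median 1.17), beside 15.4% and 14.3%. Cldn18, the claudin of alveolar epithelium, had 363 to 487 CPM in the other 4 lungs and 0.398 CPM in that of Rat3789, against 0.101 to 2.87 CPM in rims (7.33, adjusted p = 0.0172; 9.33, adjusted p = 7.11e-06 without Rat3789; 0.569 with limma-voom). The polarity gene Crb3 (3.32, adjusted p = 0.00646) and Pard6b (3.56, adjusted p = 0.00674) were higher in lung, but lost their calls without Rat3875 (adjusted p = 0.0535 for Crb3 and 0.0553 for Pard6b), without Rat3876 and Rat3877 (0.0866 and 0.0968) and with limma-voom (0.169 and 0.202). Those fits keep the library of Rat3789. Without it Crb3 came to 4.00 (adjusted p = 3.12e-05) and Pard6b to 4.32 (adjusted p = 1.23e-05). Clmp, an adhesion molecule of the Cxadr family, averaged 48.3 CPM in lungs and 70.1 CPM in cores, against 247 CPM in rims (lung minus rim -2.44, adjusted p = 0.000316; core minus rim -1.99, adjusted p = 0.000392). Jam3 was lower in both (-1.04, adjusted p = 0.000689, and -1.15, adjusted p = 0.000628).

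In core against rim, 3 of 35 tested host genes of these lists were higher and 16 lower, with a median of -0.57, beside 17.5% and 20.1% of all genes. Without Rat3876 and Rat3877 they were 2 higher and 10 lower of 31, with 24.5% of 12615 genes called, 10.8% higher and 13.7% lower. Among scaffolds and polarity proteins 2 rose and 12 fell. Prkcz, an atypical protein kinase C of the polarity complex, averaged 0.855 CPM in cores, against 7.92 CPM in rims (-3.51, adjusted p = 0.00120). Its mean in cores lay under the 1 CPM of the filter on low values. Its partner Pard6g (-2.80, adjusted p = 0.00303) and the multi-domain scaffold Mpdz (-1.98, adjusted p = 7.69e-05) fell as well. Tjp3 went up, with a mean of 39.4 CPM in cores, against 16.2 CPM in rims (1.33, adjusted p = 0.00204), and so did Cldn15 (20.4 CPM against 5.23 CPM; 1.77, adjusted p = 0.00437). The repressors Snai1 (-3.06, adjusted p = 7.93e-05), Snai2 (-2.94, adjusted p = 0.00557) and Twist1 (-2.49, adjusted p = 0.000623) were lower in core, 5 of 6 tested repressors in all. In lung against rim 5 of 6 were lower too, beside 11.6% of all genes, among them Twist1 (-4.15, adjusted p = 0.00118). Without the lung of Rat3789, 5 of 6 were again lower, beside 14.3% of all genes, with Twist1 at -4.68 (adjusted p = 3.23e-05). These repressors are also expressed by fibroblasts, whose marker sums given above were highest in rims. The part of fibroblasts in these differences was not tested.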

How the data were processed

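PolyA libraries of lung, core, rim, gland and pellet were used. STAR, featureCounts, Trim Galore and limma, and the builds GRCm38 and Rnor_6.0, are named in the submitters' processing notes. How reads were assigned to a species, whether counting used strand, how low genes were removed and tool versions: not given in the sources used here. In tumor and lung tables the deposited signal (CPM) equals reads plus 0.5, times a constant per library: 100% of values came out as whole reads within 0.01. For gland and pellet the authors deposited read counts, set here as CPM over the genes of the tumor tables, with no further factor. The gland columns could not be matched to single labels. Unmapped columns numbered 0. The tables of the 2 species were scaled separately. The deposited column names of core and rim say inside and outside, matched to the labels' core and rim.

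The main test was limma 3.58.1 (trend, R 4.3.3) on log2 of the deposited signal, two-sided, Benjamini-Hochberg over all genes that reached 1 CPM in 5 or more of the compared libraries, called at adjusted p under 0.05. The 0.5 read already in each value served as pseudocount; fold changes of genes with few reads are understated. Core and rim were blocked by rat; lung comparisons were not. Core and rim are paired because the labels name their rat; deviations of a rat's core and rim correlated across mouse genes at -0.182 to 0.238 and across rat genes at 0.0277 to 0.339. The fit was tested on simulated data. Alternatives were edgeR 4.0.16, DESeq2 1.42.0 and limma-voom on recovered reads, other scalings and filters, an added 1 CPM, left-out rats, a fit of 15 libraries and the other blocking. Nothing in the labels says that regions of a rat were sampled more than once; no replicate pair was within sampling noise (chi-square per degree of freedom at least 5.70). Intervals on single libraries are exact Poisson (scipy 1.17.1) and cover counting error only, since reads carry no molecular identifiers.

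Members and gene lists were chosen with earlier results of these data known. Named were the 6 members, per list and comparison up to 3 called genes with the largest rise and 3 with the largest fall, the 3 mouse genes most correlated with each member (mean log2 of at least 2), listed cell markers, and neighbours of Cldn3 by position. A gene that this rule names is not reported here. Sequences and positions come from GENCODE M21 (GRCm38), the build the submitters name.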

Additional observations from a re-analysis of the deposited data

Results flagged for a closer look

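Within groups of 5 libraries, a value was taken as far from the others when its gap to the nearest exceeded 0.71 of the group's range (Dixon's 95% critical value). Of 36 groups (6 genes, 3 tissues, 2 species), 3 held such a value, where chance gives about 1 in 20 groups, and all 3 came from the library labelled lung of Rat3789. Mouse Tjp1 was 319 CPM there, against 184 to 217 CPM in the other lungs. Rat Cldn7 was 0.739 CPM, against 42.9 to 54.9 CPM, and rat F11r was 35.8 CPM, against 179 to 236 CPM. In the same library 7 rat alveolar genes summed to 85.7 CPM, against 8906 to 15030 CPM in the other lungs.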

How the results depend on the processing

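Of 492 alternative values for the 30 member results, 452 kept their direction and side of the threshold, 13 lost a call, 17 gained one and 10 turned round. Direction turned for mouse Tjp1 (0.050 in core against rim without Rat3869; 0.086 in lung against core without Rat3876 and Rat3877), mouse Cldn3 in core against rim (-0.22 without Rat3877, -0.25 without Rat3876 and Rat3877), rat Cldn7 in core against rim (-0.097 with edgeR, -1.18 with limma-voom, -0.064 without Rat3869, -0.13 without Rat3875), rat F11r in core against rim (-0.093 without Rat3869) and rat Cldn4 in lung against rim (-0.59 without Rat3875); none of these was called, and the cause was not tested. The fits that leave out 1 rat ran from -0.22 to 0.05 for that Tjp1, from -0.22 to 0.35 for Cldn3, from -0.13 to 1.21 for rat Cldn7, from -0.093 to 0.46 for rat F11r and from -0.59 to 0.98 for rat Cldn4. Of 1187 values for 72 results of other named genes, 1050 kept direction and call, 137 lost the call and 0 turned round.

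Genes called numbered 2603 in lung against rim (mouse), 4736 in lung against core (mouse), 2585 in core against rim (mouse), 3065 in lung against rim (rat) and 5092 in core against rim (rat). Leaving out 1 rat gave 1239 to 2809, 2852 to 4901, 1171 to 2284, 1384 to 4077 and 3720 to 4589, and leaving out Rat3876 and Rat3877 together gave 851, 1570, 1668, 952 and 3091, with fewer libraries in each fit. Total-count scaling changed the split of higher and lower calls in lung against rim to 1717 and 1108 in mouse reads (1285 and 1318 otherwise) and to 2435 and 1255 in rat reads (1458 and 1607), and in lung against core to 3053 and 1875 (2237 and 2499). It moved the median of all rat genes in lung against rim from 0.020 to 0.15. Cldn3, Cldn4 and F11r kept their calls in the lung comparisons of mouse reads under each scaling.

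The fit with the replicate block, over the 4 rats that gave both tissues, called 2362 (lung against rim, mouse), 4650 (lung against core, mouse) and 3474 (lung against rim, rat), and without the replicate block core against rim called 2630 (mouse) and 5049 (rat). Beside the members named in the text (Cldn7 and Tjp1 in mouse reads), rat Tjp1 (0.78, adjusted p = 0.0211) and Cldn7 (3.93, adjusted p = 0.0254) gained a call in lung against rim with the block, which leaves out Rat3789; it changed no other member's call. Mouse Cldn7 in lung against rim was -1.23 without Rat3876 and Rat3877 (adjusted p = 0.0156). Rat reads of the claudins (0 to 587 a library) limit what the host values can show.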
